A study of Mus musculus with 4 samples.

Results

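Transcripts of 10 dual-specificity MAP kinase phosphatase genes (Dusp1, Dusp2, Dusp4, Dusp5, Dusp6, Dusp7, Dusp8, Dusp10, Dusp14 and Dusp16) were followed in adult mouse heart muscle cells. The genes were taken by name, with earlier results of these data known, and were 10 of the 20870 named genes with a usable probe. Dusp8 and Dusp16 had 2 probes each and the others 1, which gave 12 probes. All cells came from 10-week-old male mice that carried both a Cre transgene driven by the αMHC promoter, which is active in heart muscle, and a tetO transgene for the reprogramming factors OSKM (Oct4, Sox2, Klf4 and Myc). The control group (n = 2 arrays) had been given PBS for 2 days and the doxycycline group (n = 2 arrays) intraperitoneal doxycycline for 2 days, so both groups held the same transgenes. No group received doxycycline without the transgenes, and an effect of the drug cannot be told apart from one of the factors. Each array was hybridised with Cy3-labelled total RNA of isolated cardiomyocytes. The labels do not say whether the arrays of a group came from separate animals, so the spread behind the p values below is that between these 4 samples and could be technical.

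Dual-specificity MAP kinase phosphatases switch MAP kinases off by removing the phosphate from both the threonine and the tyrosine of the activation loop. Many of them are transcribed in response to the kinases they inactivate, which makes their mRNA a negative feedback of the pathway. Dusp1, Dusp2, Dusp4 and Dusp5 encode inducible nuclear enzymes, Dusp6 and Dusp7 encode cytoplasmic enzymes selective for ERK, and Dusp8, Dusp10 and Dusp16 encode enzymes that act mainly on JNK and p38. Dusp14 encodes a small enzyme without the kinase-binding domain of the others. In heart muscle the ERK, JNK and p38 cascades take part in hypertrophic growth and in the response to stress.

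The 250 bases before the annotated start of each gene were taken from RefSeq (assembly GRCm38.p6), where 9 of the 10 genes had an entry; Dusp4 had none. Each window was searched on both strands for the cAMP response element TGACGTCA, the AP-1 site TGAGTCA, the E-box CACGTG, the glucocorticoid receptor core motif AGAACA and the TATA box TATAAA. The windows of Dusp1, Dusp2 and Dusp8 held matches, shown in capitals, and those of Dusp5 and Dusp7, shown because these genes had large differences between the groups, held none. The windows read 5′ to 3′ on the strand of the gene and lie at chr17:26508473-26508722 (Dusp1, minus strand), chr2:127335909-127336158 (Dusp2, plus strand), chr7:142095285-142095534 (Dusp8, minus strand), chr19:53528895-53529144 (Dusp5, plus strand) and chr9:106368382-106368631 (Dusp7, plus strand).
Dusp1: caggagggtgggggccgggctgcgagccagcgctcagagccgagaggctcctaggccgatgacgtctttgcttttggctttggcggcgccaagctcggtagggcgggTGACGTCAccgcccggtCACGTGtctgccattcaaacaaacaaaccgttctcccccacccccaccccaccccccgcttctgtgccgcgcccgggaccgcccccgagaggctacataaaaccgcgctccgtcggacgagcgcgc
Dusp2: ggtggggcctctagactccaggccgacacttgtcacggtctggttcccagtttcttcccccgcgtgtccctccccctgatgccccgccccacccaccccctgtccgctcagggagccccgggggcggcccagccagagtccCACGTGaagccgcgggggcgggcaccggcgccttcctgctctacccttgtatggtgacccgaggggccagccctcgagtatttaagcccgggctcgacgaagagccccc
Dusp8: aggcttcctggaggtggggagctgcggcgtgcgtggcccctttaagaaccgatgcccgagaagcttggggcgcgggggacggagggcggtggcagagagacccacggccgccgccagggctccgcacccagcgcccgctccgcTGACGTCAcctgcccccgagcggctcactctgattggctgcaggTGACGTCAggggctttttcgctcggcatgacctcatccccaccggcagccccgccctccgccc
Dusp5: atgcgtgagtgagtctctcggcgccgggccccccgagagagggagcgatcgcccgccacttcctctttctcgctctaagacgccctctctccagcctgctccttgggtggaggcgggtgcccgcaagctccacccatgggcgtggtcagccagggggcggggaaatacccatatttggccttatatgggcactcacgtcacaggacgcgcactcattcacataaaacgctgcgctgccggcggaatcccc
Dusp7: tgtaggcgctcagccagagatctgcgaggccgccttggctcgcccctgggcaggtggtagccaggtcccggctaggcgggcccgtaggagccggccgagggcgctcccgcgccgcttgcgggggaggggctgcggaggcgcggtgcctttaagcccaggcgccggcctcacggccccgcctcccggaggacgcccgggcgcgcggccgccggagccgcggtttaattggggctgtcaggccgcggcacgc
The window of Dusp1 held 1 cAMP response element at -143 to -136 and 1 E-box at -126 to -121, counted from the start of the gene. The window of Dusp8 held the cAMP response element at -107 to -100 and again at -63 to -56, and the window of Dusp2 held 1 E-box at -109 to -104. The cAMP response element was present in 1.55% of 32851 mouse windows of this length, the E-box in 6.02%, the AP-1 site in 4.46%, the glucocorticoid receptor motif in 16.1% and the TATA box in 12.4%. None of the 5 motifs was matched in the windows of Dusp6, Dusp10, Dusp14 and Dusp16. The median G+C content was 68.4% over the 9 windows and 52.4% over all windows. A match describes the letters of the window and does not show that a factor binds there.

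Levels are log2 processed signals after subtraction of each array's 75th percentile. Differences are given as doxycycline minus control with the standard error (SE) of a limma fit over all 20092 probes that were well above background on at least 2 arrays. The level of one probe cannot be set against that of another. The 75th percentile of the processed signal ranged from 112 to 171 in control and from 193 to 248 after doxycycline. The coefficient of variation of repeated spots was 10.99% for control array 1, against 4.02% to 4.81% elsewhere. Correlation over the tested probes was 0.942 between the control arrays, 0.975 between the doxycycline arrays and 0.922 to 0.972 between arrays of different groups. The control arrays lay next to each other on the slide and the doxycycline arrays after them, so position and treatment cannot be told apart. All 9 heart muscle markers were well above background on every array, with summed levels (in units of the 75th percentile) of 4421 and 4942 in control and of 3144 and 3944 after doxycycline. These sums were made up mostly of the brightest markers. By gene, 5 read higher and 4 lower after doxycycline, with a median difference of 0.03. The 8 fibroblast markers all read lower after doxycycline (median -2.71). For 5 of them both doxycycline arrays lay below both controls, against 19.4% of all tested probes. The sums, 216 and 66.5 against 77.2 and 83.0, were highest on control array 1 and were made up mostly of Dcn (-0.32 ± 0.60, SE). The 8 endothelial markers summed to 300.2 and 87.3 against 83.8 and 123, again mostly from the brightest markers. By gene, 3 read higher and 5 lower, with a median of -0.18. Of the other markers, 7 of 8 for macrophages and monocytes and 6 of 8 for smooth muscle and pericytes read lower. So did all 4 for red cells and all 5 for Schwann cells, where 14145 of 20870 named genes, many of them dim, read lower. The sums of these lists too were highest on control array 1. Of the 5 adipocyte markers, 4 read higher. The part of these cell types in the values below was not tested.

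No member passed the test over all probes (0 of 9 tested probes, 8 genes, at an adjusted p under 0.05, where 0.0% of all tested probes passed). An unadjusted limma p under 0.05 was reached by 1 of the 9 probes in each direction, Dusp4 higher and Dusp7 lower, against a background of 3.1% higher and 3.28% lower among all tested probes. Dusp4 was well above background on the doxycycline arrays alone and entered the tested probes through them, so nothing is read from its place in this count or the next. Both doxycycline arrays lay above both control arrays for 3 of the 9 probes (Dusp4, the dimmer Dusp8 probe and the brighter Dusp16 probe), where 15.3% of all tested probes did so. Both lay below for 2 of the 9 (Dusp7 and Dusp10), where 19.4% did so. With 2 arrays against 2, a permutation test of 1 probe cannot give a p below 0.333. Of the 12 member probes, 7 were well above background on all 4 arrays, and 3 were so on doxycycline array 1 alone and were not tested.

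**Figure D1:**
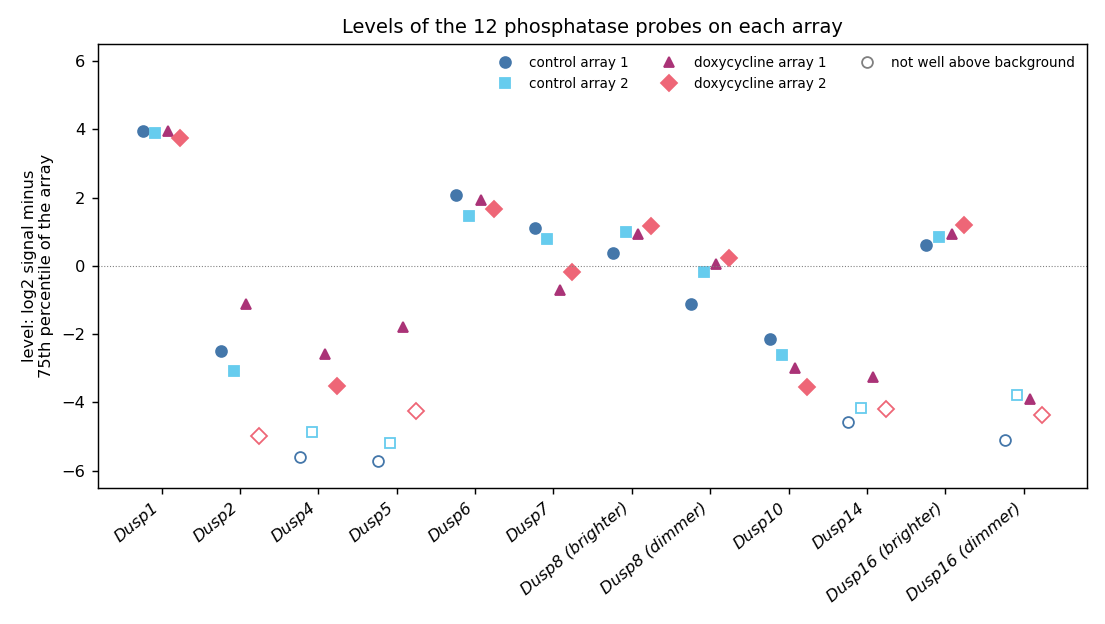
The level (log2 signal minus the array's 75th percentile) of each of the 12 phosphatase probes on control arrays 1 and 2 and doxycycline arrays 1 and 2, with open symbols where the probe was not well above background. The 4 arrays of Dusp1 lie between 3.75 and 3.96, whereas Dusp4 lies below -4.8 on the controls and above -3.6 after doxycycline and Dusp2 is spread between its doxycycline arrays.

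Among the inducible nuclear enzymes, Dusp1 read at close to the same level on all arrays, Dusp4 and Dusp5 read higher after doxycycline from a dim baseline, and Dusp2 differed mostly between the doxycycline arrays. Dusp1 encodes the phosphatase of p38, JNK and ERK that is induced at once by stress, growth factors and glucocorticoids. It read 3.96 and 3.88 in control and 3.95 and 3.75 after doxycycline (processed signals of 1747, 2517, 3826 and 2595). The groups overlapped, and the difference was -0.07 ± 0.39 (SE, adjusted p = 0.992), with a 95% interval from -1.01 to 0.87. The sign turned when arrays were scaled to their median (0.28), a scaling that raised the difference of every probe, with the median over all tested probes going from -0.04 to 0.30.

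Dusp2, first known from activated lymphocytes and a phosphatase of ERK and p38, read -2.49 and -3.08 in control and -1.13 and -4.99 after doxycycline. Both the highest and the lowest of the 4 levels were thus doxycycline arrays, and on doxycycline array 2 the probe was not well above background. The gap of 3.86 between these arrays was larger than that of 99.9% of the tested probes. The mean difference of -0.27 ± 1.14 (SE, adjusted p = 0.990) became 1.66 without doxycycline array 2 and -2.20 without doxycycline array 1. The 8 lymphocyte markers summed to 3.92 and 2.76 in control and to 2.35 and 2.38 after doxycycline, a sum made up mostly of Nkg7. All 8 read lower after doxycycline, but only 3 were tested and 3 were well above background on no array. Of all 20870 named genes, many of them dim, 14145 read lower. The neutrophil alarmin S100a8 read -2.19 and -3.65 in control and 1.61 and -0.11 after doxycycline, and its partner S100a9 read 0.17 and -0.94 against 3.66 and 2.08. The 5 measured neutrophil markers summed to 72.1 and 38.6 in control and 50.7 and 54.0 after doxycycline, a sum made up mostly of Csf3r. Mmp9 and Cxcr2 were not well above background on any array. The part of blood cells in the Dusp2 values was not tested.

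Dusp4, a nuclear phosphatase that is itself induced by ERK, read -5.61 and -4.88 in control and -2.58 and -3.53 after doxycycline. It was well above background on both doxycycline arrays and on neither control array, and so entered the test through the group in which it was high. Its processed signals were 2.30 and 5.81 in control and 41.4 and 16.6 after doxycycline. Control signals give only a bound, by which Dusp4 read at least 1.72-fold higher after doxycycline (the mean level against the mean, over the control arrays, of the lowest level well above background). This bound applies only to the levels as scaled here and was not tested. The measured levels differed by 2.18 ± 0.51 (SE, adjusted p = 0.365, limma). With normexp background correction, which adds an offset and compresses dim probes, they differed by 0.03 ± 0.27 (SE).

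Dusp5, the nuclear phosphatase selective for ERK, read -5.73 and -5.18 in control and -1.81 and -4.25 after doxycycline, with processed signals of 2.11, 4.70, 71.0 and 10.1. Both doxycycline arrays lay above both control arrays, but the probe was well above background on doxycycline array 1 alone and was not tested. The difference in level was 2.43, with only 1 of the 4 arrays measured above background. It was 1.20 without doxycycline array 1, 3.65 without doxycycline array 2 and 0.12 with normexp. In bulk RNA such as this, fewer cells with a transcript and less transcript per cell cannot be told apart.

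The 2 cytoplasmic ERK phosphatases did not share a direction. Dusp6, which docks to ERK and holds it in the cytoplasm, read 2.08 and 1.47 in control and 1.92 and 1.66 after doxycycline. Both doxycycline arrays lay between the controls, with a difference of 0.01 ± 0.43 (SE, adjusted p = 0.999) and a 95% interval from -1.01 to 1.04. Dusp7, its closest relative in role, read 1.10 and 0.80 in control and -0.70 and -0.19 after doxycycline. Both doxycycline arrays lay below both controls, and the probe was well above background on all arrays (processed signals of 240, 296, 153 and 169). The difference was -1.39 ± 0.42 (SE, 2.62-fold lower, unadjusted p = 0.0142, adjusted p = 0.548, limma), with a 95% interval from -2.39 to -0.38. Only 2.82% of the tested probes had a lower difference. Dusp7 was lower under every alternative run, from -1.65 without doxycycline array 2 to -0.94 with normexp.

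**Figure D2:**
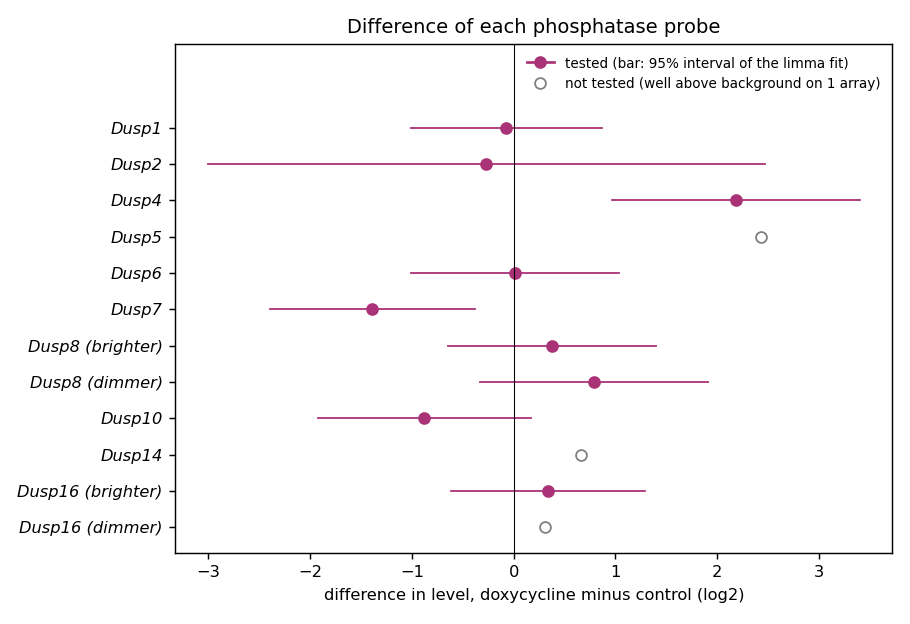
The difference in level (log2, doxycycline minus control) of each phosphatase probe, with the 95% interval of the limma fit for the 9 tested probes and an open circle for the 3 that were not tested. The intervals of Dusp4 (0.97 to 3.40) and Dusp7 (-2.39 to -0.38) lie on opposite sides of 0, the other 7 include 0, and that of Dusp2 is the widest.

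Of the JNK and p38 phosphatases, Dusp10 read lower after doxycycline and Dusp8 and Dusp16 read higher, each by less than 1 on the log2 scale. Dusp10, which acts on JNK and p38, read -2.15 and -2.63 in control and -2.99 and -3.55 after doxycycline. Both doxycycline arrays lay below both controls, with a difference of -0.88 ± 0.44 (SE, adjusted p = 0.859) and a 95% interval from -1.92 to 0.17. The brighter probe of Dusp8, a JNK-directed enzyme found mainly in brain and heart, read 0.36 and 0.98 in control and 0.93 and 1.17 after doxycycline. Its groups overlapped (0.38 ± 0.43, SE, adjusted p = 0.947). The dimmer Dusp8 probe read -1.13 and -0.18 in control and 0.07 and 0.21 after doxycycline, with no overlap (0.79 ± 0.47, SE, adjusted p = 0.892). On both probes control array 1 was the lowest, and without it the differences were 0.07 and 0.32.

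Dusp16, whose product binds JNK and shuttles between nucleus and cytoplasm, read 0.62 and 0.84 in control and 0.94 and 1.19 after doxycycline on its brighter probe. The doxycycline arrays lay above the controls by a small margin (0.34 ± 0.40, SE, adjusted p = 0.954), with a 95% interval from -0.62 to 1.29. The dimmer Dusp16 probe, well above background on doxycycline array 1 alone, read -5.10 and -3.78 in control and -3.89 and -4.38 after doxycycline. Its groups overlapped (0.30, not tested), and the sign turned without control array 1 (-0.36) and with normexp (-0.43). Dusp14, the small atypical enzyme, read -4.59 and -4.17 in control and -3.25 and -4.19 after doxycycline. It was well above background on doxycycline array 1 alone, where its processed signal was 26.1, and its difference of 0.66 was not tested and turned to -0.33 with normexp.

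Taking each gene by its brightest probe, 6 of the 10 members read higher and 4 lower after doxycycline, with a median difference of 0.17, where the median over all named genes, many of them dim, was -0.31. Over the 8 tested members the median was -0.03, where it was -0.06 over the 12542 genes tested. The median of the 10 members ranged from 0.04 without doxycycline array 1 to 0.23 without doxycycline array 2. The 3 probes seen on doxycycline array 1 alone (Dusp5, Dusp14 and the dimmer Dusp16 probe) stood beside 614 such probes on the whole array (1.56%). Probes seen on 1 other array alone numbered 817 for control array 1 (2.07%), 534 for control array 2 and 297 for doxycycline array 2. Doxycycline array 1 also had the highest 75th percentile. Probes seen on both doxycycline arrays and on neither control numbered 288 (0.731%) and included Dusp4.

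Among the 5 named genes whose profile over the 4 arrays lay nearest to that of Dusp4, by root mean square distance of the levels after each profile was centred on its own mean, were C1qtnf6 (0.047), Fhl1 (0.172), Cidea (0.177) and Nfil3 (0.180). Nfil3, a bZIP transcription factor, read -0.90 and 0.30 in control and 2.48 and 1.56 after doxycycline. They were chosen for their likeness, so the order of the arrays that they share with Dusp4 is no further result.

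The rest of the pathway was described with lists of genes upstream and downstream of the phosphatases, each gene by its brightest probe. No listed gene passed the test over all probes, and the lists are described by counts and medians, each median with its range when 1 array was left out. Of 23 other dual-specificity phosphatases, 16 were tested, 11 read higher and 12 lower, with a median of -0.09 (-0.24 to 0.22 with 1 array left out) and of 0.05 over those tested. Dusp26, a phosphatase of neural and muscle tissue, had the smallest p among those higher (1.16 ± 0.47, SE), and Dusp3, a small ERK and JNK phosphatase, among those lower (-0.89 ± 0.46, SE). Of 8 tyrosine and serine phosphatases that act on MAP kinases, 3 read higher and 5 lower, with a median of -0.17 (-0.39 to 0.02). Over the 6 of them that were tested the median was 0.29. Ppp2ca, the catalytic subunit of protein phosphatase 2A, differed by 0.87 ± 0.45 (SE).

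Among the kinases that the phosphatases switch off, 2 of 14 MAP kinases read higher and 12 lower, with a median of -0.44 (-0.56 to -0.27, the latter without control array 1). Of all 12542 genes tested, 6876 read lower. All 14 kinases were tested, and 5 were lower with no overlap of the groups (19.4% of all tested probes). None was lower with an unadjusted limma p under 0.05. Mapk4, an atypical kinase, had the smallest p (1.80 ± 0.66, SE). The p38 kinase Mapk14 differed by 0.00 ± 0.40 (SE) and was singled out after its values were seen. One tier up, 5 of 7 MAP kinase kinases read higher and 2 lower (median 0.15, and -0.05 to 0.41 with 1 array left out). Map2k6, an activator of p38, read -0.55 and -0.44 in control and -3.44 and -2.25 after doxycycline, lower on both arrays by -2.35 ± 0.51 (SE, unadjusted p = 0.0028, adjusted p = 0.328, limma). Of 14 RAF and MAP kinase kinase kinases, 9 read higher and 5 lower (median 0.20, and 0.11 to 0.35). Map3k6, an upstream kinase of the stress-activated branch, read 0.02 and -0.66 in control and 4.16 and 3.13 after doxycycline. Its difference was 3.96 ± 0.52 (SE, adjusted p = 0.193, limma).

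The scaffolds that hold the kinases together read lower in 8 of 9 cases, with a median of -0.82 (-0.996 to -0.46 with 1 array left out, the latter without control array 1). Over the 8 of them that were tested the median was -0.60. Of all 12542 genes tested, 6876 read lower. Mapk8ip1, which assembles the JNK module, differed by -1.70 ± 0.61 (SE). Of 11 kinases activated by MAP kinases, 5 read higher and 6 lower (median -0.04, and -0.24 to 0.16). Rps6ka2, a ribosomal S6 kinase downstream of ERK, was not well above background after doxycycline. It read at least 2.74-fold lower by the same kind of bound (-1.46 ± 0.46, SE, adjusted p = 0.581, limma). Of 15 receptor ligands upstream of RAS, 6 read higher and 9 lower (median -0.29, and -0.23 to 0.03), and the 9 tested had a median of -0.06. Hbegf, a shed ligand of the EGF receptor, read 0.88 and 0.91 in control and 3.67 and 1.44 after doxycycline, higher on doxycycline array 1 than on array 2 as Dusp5 was. Igf1 differed by -1.77 ± 0.56 (SE).

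**Figure D3:**
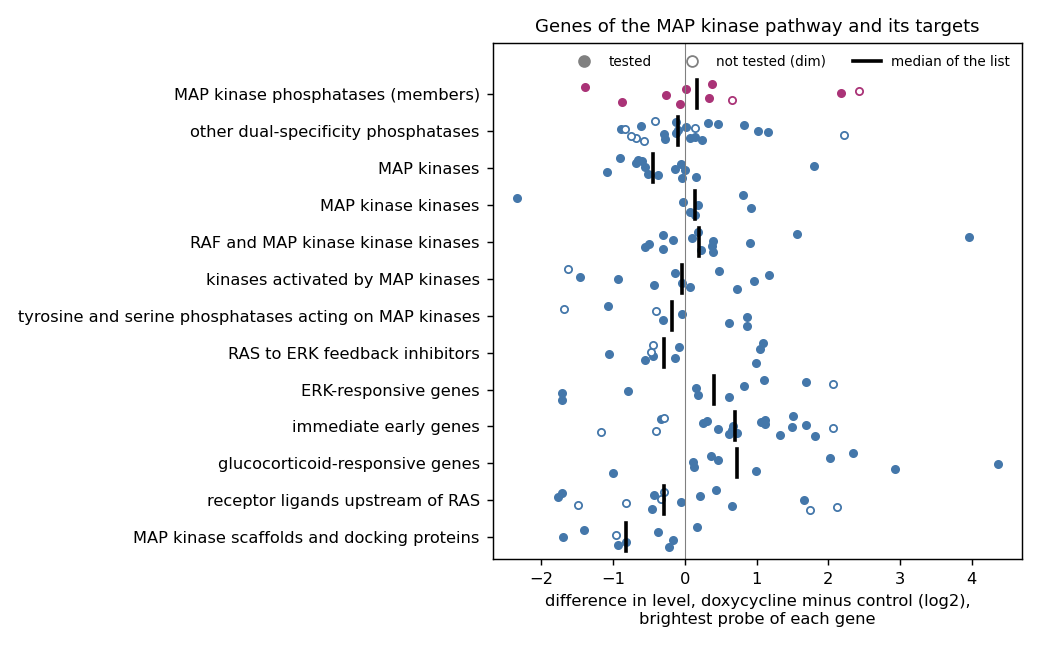
The difference in level (log2, doxycycline minus control) of each gene in the members and in 12 lists of the MAP kinase pathway and its targets, each gene by its brightest probe, with open circles for genes not tested and a bar at the median of each list. The members spread on both sides of 0 (median 0.17), while the immediate early and glucocorticoid-responsive lists lie mostly above 0 (medians 0.70 and 0.73) and the scaffolds mostly below (-0.82).

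Transcripts that respond to the pathway, as several of the phosphatases do, were grouped in the same way, and some genes stood in more than 1 list. Of 10 inhibitors that feed back on RAS and ERK, 3 read higher and 7 lower (median -0.29, and -0.41 to -0.06 with 1 array left out), with Spry1 of the Sprouty family at 1.05 ± 0.41 (SE). Over the 8 inhibitors that were tested the median was -0.11, and 2 were well above background on no array. Of 10 ERK-responsive genes, 7 read higher and 3 lower, with a median of 0.40 that was -0.24 without doxycycline array 1 and 1.16 without doxycycline array 2, among them Ier3, a stress-induced gene (1.69 ± 0.63, SE), and Ccnd1, which encodes cyclin D1 (-1.72 ± 0.51, SE). Of 20 immediate early genes, 16 read higher. Among the 16 that were tested, 9 were higher with no overlap of the groups (15.3% of all tested probes) and 6 were higher with an unadjusted limma p under 0.05 (3.1% of all tested probes). Their median over the 20 genes, 0.70, was 0.08 without doxycycline array 1 and 1.27 without doxycycline array 2. Fosl2, an AP-1 subunit, read 0.72 and 0.37 in control and 2.34 and 1.75 after doxycycline (1.50 ± 0.43, SE).

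Of 10 glucocorticoid-responsive genes, 9 read higher, 7 of them with no overlap (against 15.3% of all tested probes) and 4 with an unadjusted limma p under 0.05 (against 3.1%). Their median of 0.73 ranged from 0.54 to 1.02 with 1 array left out. Fkbp5, a co-chaperone of the glucocorticoid receptor, read 0.53 and 0.25 in control and 3.49 and 3.15 after doxycycline (2.93 ± 0.41, SE, adjusted p = 0.203, limma). Dusp1, which is also known as a glucocorticoid-responsive gene and was not placed in this list, differed by -0.07. These lists were chosen with results of these arrays known and give no independent evidence of a direction.

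**Figure D4:**
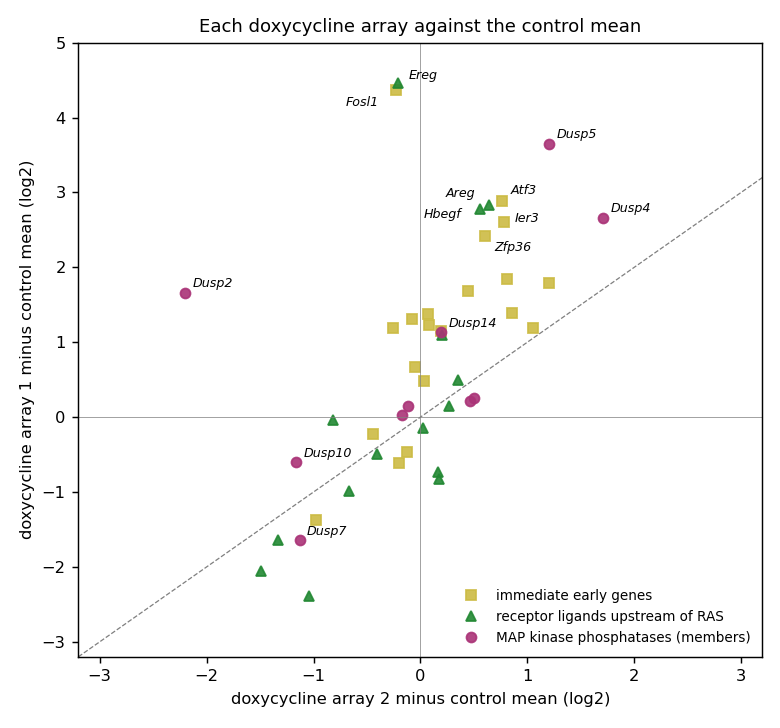
Levels on doxycycline array 1 (vertical) and doxycycline array 2 (horizontal), each minus the mean of the control arrays (log2), for the 10 members, 20 immediate early genes and 15 receptor ligands, with a dashed line where both arrays are equal. Dusp5, at 3.65 on array 1 and 1.20 on array 2, and Dusp2, at 1.66 and -2.20, lie above the line, whereas Dusp7 lies below 0 on both.

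Several listed genes that are known to be induced quickly also read higher on doxycycline array 1 than on doxycycline array 2. Ereg and Areg, EGF receptor ligands, and Fosl1, an AP-1 subunit, were like Dusp5 and Dusp14 well above background on doxycycline array 1 alone. The same held for Dusp21, listed with the other dual-specificity phosphatases and not among the immediate early or ERK-responsive genes. Dusp21 stood at -0.40 on doxycycline array 1, against -5.46 on doxycycline array 2, -5.08 on control array 1 and -5.23 on control array 2. Fosl1 read -5.71 and -6.15 in control and -1.56 and -6.15 after doxycycline. Ereg read -5.71 and -6.07 in control and -1.43 and -6.10 after doxycycline. Areg read -5.92 and -5.93 in control and -3.09 and -5.28 after doxycycline. These genes and the array they were highest on were picked after their values were seen. What set the doxycycline arrays apart was not tested.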

How the data were processed

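Cardiomyocyte RNA was measured on 4 Agilent 1-colour arrays, 2 per group, and samples were grouped by their labels. Spot intensity was read by the authors from Cy3 scans, per the file headers, in Agilent Feature Extraction 10.7.1.1. The deposited processed intensity is background-subtracted on a linear scale and not normalized between arrays. Other deposited columns, per the file headers, flag spots as well above background, as outliers or as saturated; 0 spots were saturated. No other step of the authors is given in the sources used here.

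The intensity was log2-transformed and each array's 75th percentile over non-control spots was subtracted. Outlier-flagged spots were left out and the spots of a probe averaged, which gave 39429 probes, of which 35 had every spot flagged on an array. Accessions of 27508 probes were named, for 20886 genes, through a RefSeq table. Probes that 2 or more of the 4 arrays flagged well above background entered a two-sided limma 3.58.1 test (lmFit and eBayes) in R 4.3.3, with 4.60 prior and 2 residual degrees of freedom. P values were adjusted with Benjamini-Hochberg over all 20092 probes, at a threshold of 0.05. The steps were tested on simulated data. Plots were made in Python 3.11.15 with matplotlib 3.10.9. The number of arrays limits the precision.

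A group not well above background on any array has its fold given as a bound, with the higher of its own level and the lowest level well above background on each array. The text names all members, from each list the gene with the smallest p in each direction as far as needed, and the 5 genes nearest to the member with the smallest p, with clone and predicted-gene names passed over. One gene chosen by this rule is not reported here. Genes named outside this rule are Mapk14, Ereg, Areg, Fosl1, Dusp21, Klf9, Per1, Tsc22d3, Dcn, S100a9, Mmp9 and Cxcr2. Members, lists and tests were chosen with earlier results of these data known. A planned comparison of protein sequences was not run. Normexp, with an offset of 50, used the median spot signal, since a mean was not used here. Same-numbered arrays are not stated to be pairs, and their deviations correlated at -0.129, so no pairing was used.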

Additional observations from a re-analysis of the deposited data

How the results depend on the processing

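Of 155 recomputed member differences, 12 turned their sign, in 5 members. Dusp1 reversed to 0.11 with normexp and to 0.28 with scaling to the array median, and ranged from -0.17 to 0.026 with 1 array left out. Dusp6 reversed to -0.064 with quantile normalization and ranged from -0.29 to 0.32 with 1 array left out. Dusp2 reversed to 0.078 with scaling to the array median and ranged from -2.20 to 1.66 with 1 array left out. Dusp14 turned to -0.33 with normexp, and the dimmer Dusp16 probe to -0.43 with normexp and to -0.36 without control array 1. Dusp4, Dusp5, Dusp7, Dusp10, both Dusp8 probes and the brighter Dusp16 probe kept their direction under every alternative run on them. Dusp4 lay between 0.03 (normexp) and 2.66 (without doxycycline array 2). No probe was called over the array in the settings given in the report, but 152 were with scaling to the array median (114 higher, 38 lower), 31 with no filter on dim probes, and 0 to 92 with 1 array left out, the 92 without doxycycline array 2. No member was among these calls. With scaling to the median, 8 of the 10 members, each by its brightest probe, had groups that did not overlap (6 higher, 2 lower), against 5 (3 higher, 2 lower). The share of all named genes so placed, also by brightest probe, went from 9.8% to 17.6% higher and from 33.4% to 12.9% lower. Over all tested probes it went from 15.3% to 25.7% higher and from 19.4% to 8.03% lower. With the replicate number as a replicate block, 364 probes were called and 1 member, Dusp4 (adjusted p = 0.0305, limma, and 0.077 to 1 under the other alternatives); the numbers are not stated to pair the arrays, and this fit had 1 residual degree of freedom. A crossed pairing, chosen after seeing the data, called 75 probes and 0 members. The cause of these shifts was not tested. Signal over background limits Dusp4, Dusp5, Dusp14 and the dimmer Dusp16 probe. Leaving out an array gave no count of members without overlap, and a mean of a gene's probes gave no median over the members; neither has a value here.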
